A study of Mus musculus with 16 samples.

Results

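The mouse Hox genes were read along their 4 clusters, in RNA sequencing of the aorta of ApoE-/- mice. Members were all gene symbols made of Hox, a cluster letter from a to d and a paralog number, and each was represented by the locus with its highest mean FPKM (a fragment value corrected for the length of the transcript and the depth of the library). This gave 39 members of 55267 symbols in the deposited table. They lay on 31 distinct loci, because 12 members lay together on 4 loci. The 4 groups held 4 libraries each. AS22W mice were fed a Western diet for 22 weeks, Sham22W mice a normal purified diet for 22 weeks, AS6W mice a Western diet for 6 weeks, and Sham6W mice a normal purified diet for 6 weeks. All mice lacked apolipoprotein E (the genotype field reads APOE knockdown), the controls included, and no wild-type group was present. Diets began at 8 weeks of age, so that the aorta was taken at 30 weeks of age in AS22W and Sham22W and at 14 weeks of age in AS6W and Sham6W. The labels do not say which stretch of the aorta each library holds, or that the libraries of a group come from separate animals, so that p-values measure the spread between these samples.

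Hox genes encode homeodomain transcription factors that give cells of the embryo their position along the head-to-tail axis. Within a cluster they are switched on in order, low paralog numbers first and nearest the head, high numbers later and nearest the tail, and many adult cells keep part of this pattern. The aorta is such a tissue, since its arch and its descending stretch are known to differ in their Hox transcripts in mammals. Retinoic acid, Polycomb and Trithorax chromatin proteins and the Pbx and Meis cofactors are known partners in Hox control and function.

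Depth lay between 44.9 and 80.9 per library, in 1e6 estimated counts. Smooth muscle markers, the defining genes of the aortic wall, were high throughout: 6 of 6 passed the expression filter and their FPKM summed to 851 to 1580 in AS22W, 1190 to 2190 in Sham22W, 2400 to 2660 in AS6W and 2660 to 3560 in Sham6W. Kidney markers stayed near 0, with 0 of 4 passing and sums of 0.0222 to 1.32 FPKM over the 16 libraries. Some libraries stood apart through genes of neighbouring tissues. AS6W replicate 1 had the highest thymus marker sum (67.5 FPKM), AS6W replicate 2 the highest nerve and ganglion sum (201 FPKM), and Sham22W replicate 4 the highest heart sum (246 FPKM) and lymph node and B cell sum (25.2 FPKM). Results without these 3 libraries, called below the libraries that stood apart, are given for the 6-week diet comparison and for time on the Western diet. That fit lacks replicates 1 and 2 of AS6W. It keeps other high libraries, such as AS22W replicate 3 (heart, 169 FPKM), AS6W replicate 4 (nerve and ganglion, 132 FPKM) and Sham6W replicate 2 (lymph node and B cell, 19.4 FPKM). Levels come from bulk tissue, in which fewer cells of a type and less RNA per cell cannot be told apart.

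The clusters also carry microRNAs of the miR-10 and miR-196 families, which lie between Hox genes and are known to target Hox transcripts. Their mature sequences, from RefSeq on GRCm38.p6, show which of them share a seed (bases 2 to 8, in capitals), the part that pairs with targets. Mir10a lies in the HoxB cluster at chr11:96317186-96317208 and Mir10b in the HoxD cluster at chr2:74726074-74726096. Mir196a-1 and Mir196a-2 give the same mature form, from the HoxB cluster at chr11:96265187-96265208 and the HoxC cluster at chr15:102973365-102973386, and Mir196b lies in the HoxA cluster on the minus strand at chr6:52230129-52230150.
mmu-miR-10a-5p: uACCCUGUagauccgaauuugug
mmu-miR-10b-5p: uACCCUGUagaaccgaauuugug
mmu-miR-196a-5p: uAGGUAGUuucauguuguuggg
mmu-miR-196b-5p: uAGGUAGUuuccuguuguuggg
Within a family the seed is the same. The miR-10 pair differs by the substitution U12A and the miR-196 pair by A12C, counted from 1 at the 5′ end, with the first-named sequence's base first.

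In the deposited table a precursor of this kind has a locus of its own or is part of a Hox locus, and its value describes longer RNA from that locus, not the mature microRNA. Mir10a was part of the locus of Hoxb3, Hoxb4 and Hoxb5, and Mir196b of the locus of Hoxa9. The short locus of Mir196a-2, between Hoxc10 and Hoxc9, stood at 0.855, 1.2, 0.958 and 1.13 FPKM in AS22W and 1.04, 0.698, 0.247 and 0.355 FPKM in Sham22W. It stood at 0 in all 4 AS6W libraries, against 0.698, 0, 0.376 and 0.843 FPKM in Sham6W. The 6-week groups met at 0, because Sham6W replicate 2 was at 0 as well.

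Sequence just upstream of a transcript start is shown for 2 members picked after their values were seen, Hoxa10, which was lower in AS6W than in Sham6W, and Hoxd8, which was higher at 22 than at 6 weeks. The 250 bases before the start are given from RefSeq on GRCm38.p6, at chr6:52240855-52241104 on the minus strand for Hoxa10 and at chr2:74704365-74704614 on the plus strand for Hoxd8. Capitals mark AGGTCA, the core motif of retinoic acid receptor sites, searched on both strands.
Hoxa10: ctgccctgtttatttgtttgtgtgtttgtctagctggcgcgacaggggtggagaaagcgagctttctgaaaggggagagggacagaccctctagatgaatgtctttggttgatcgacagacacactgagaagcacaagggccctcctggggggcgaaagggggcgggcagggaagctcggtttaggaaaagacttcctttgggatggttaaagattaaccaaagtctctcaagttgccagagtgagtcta
Hoxd8: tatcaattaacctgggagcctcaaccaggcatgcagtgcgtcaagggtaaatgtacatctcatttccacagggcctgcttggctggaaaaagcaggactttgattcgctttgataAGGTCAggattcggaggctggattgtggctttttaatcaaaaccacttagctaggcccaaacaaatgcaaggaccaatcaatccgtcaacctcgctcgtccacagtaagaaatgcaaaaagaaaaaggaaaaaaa
The motif stood once in the Hoxd8 window and nowhere in that of Hoxa10. Among all 32851 promoters of the RefSeq table, 14% held it in these 250 bases. It was present in 6 of the 24 promoters that the table gives for 22 of the 39 members, those of Hoxb4, Hoxc4, Hoxd10, Hoxd3, Hoxd4 and Hoxd8. The Hox-Pbx motif TGATTNAT, a different run of letters from AGGTCA, was held by 2.82% of all promoters and by 2 of the 24 (Hoxa2 and Hoxd11). A match is a run of letters and not a measured site. Hox promoters had a median of 12.5 CpG dinucleotides in the window, with a range of 2 to 35, against a median of 6 over all promoters.

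Hox transcripts were low but present in the aorta, and most members past the filter given here were middle paralogs, many of them read on shared loci. Mean FPKM over the 16 libraries reached 1 in 18 of 39 members. A filter of at least 1 FPKM in at least 4 libraries was passed by 21 members (13 loci). By cluster these were 8 of 11 in HoxA, 7 of 10 in HoxB, 5 of 9 in HoxC and 1 of 9 in HoxD. By position they were 5 of the 8 members of paralogs 1 to 3, 14 of the 15 members of paralogs 4 to 8, and 2 of the 16 members of paralogs 9 to 13, namely Hoxa10 and Hoxc10. Members of a shared locus carry the same value, Hoxc10 and Hoxc5 among them. Of the 14, only Hoxa7, Hoxb7, Hoxb8, Hoxc8 and Hoxd8 passed on a locus of their own on the gene's strand. A lower filter of 0.1 FPKM was passed by 29 members (21 loci), which added Hoxa9, Hoxa11, Hoxb9, Hoxc9, Hoxc11, Hoxd3, Hoxd4 and Hoxd9. Of the 21 members past the first filter, 8 passed with no AS6W library at the threshold. These were Hoxa10, Hoxb8, Hoxc4, Hoxc5, Hoxc6, Hoxc8, Hoxc10 and Hoxd8. Of the 29 past the lower one, 3 did (Hoxa11, Hoxc9 and Hoxc11).

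The remaining 10 members stayed below both filters. Hoxb13, the last HoxB gene, and Hoxd1 were at 0 in all 16 libraries. Hoxa13, Hoxb1, Hoxc12, Hoxc13, Hoxd10, Hoxd11, Hoxd12 and Hoxd13 had overall means between 0.00225 FPKM (Hoxd13) and 0.0395 FPKM (Hoxd10). Apart from Hoxb1 and Hoxd1, these are genes of the tail end of the clusters, known for the limbs and the hindmost trunk.

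**Figure D1:**
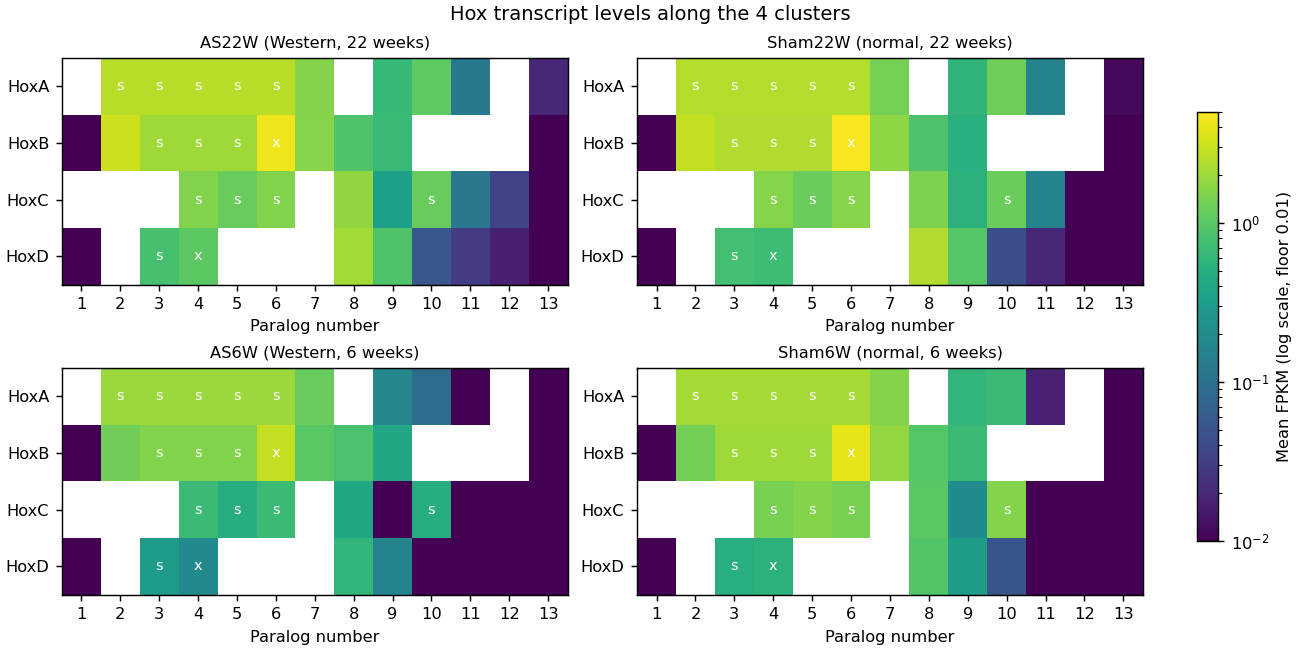
Mean FPKM of each Hox member (colour, log scale, values under 0.01 drawn at 0.01) by paralog number and cluster, 1 panel for each group of 4 libraries. White squares have no gene in the mouse or are not reported here, s marks members whose locus also names another member, and x marks a locus on another strand or with no strand. Most of paralogs 2 to 8 are bright in all panels, paralogs 11 to 13 are dark, and Hoxa9, Hoxa10, Hoxc8 and Hoxc9 are darkest in AS6W.

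Sharing limits what can be said of single genes. The largest shared locus joined Hoxa2, Hoxa3, Hoxa4, Hoxa5 and Hoxa6 with Gm28308 on chromosome 6 (52141474 to 52213336, minus strand). Another joined Hoxb3, Hoxb4 and Hoxb5, with Hoxb6 and Mir10a also named on it, on chromosome 11 (96292296 to 96348292). In the HoxC cluster on chromosome 15, Hoxc4 and Hoxc6 shared 102997413 to 103037713, and Hoxc5 and Hoxc10 shared 102966796 to 103015676, a span that holds other HoxC genes between them. The locus of Hoxd3 on chromosome 2 (74711927 to 74748442) also named Hoxd4. The top locus named Hoxb6 (96294000 to 96295416) was on the minus strand, opposite to the gene, and that named Hoxd4 (74724168 to 74724767) had no strand, so that neither may be the coding transcript. Whether counting used strand is not given in the sources used here. On the other 24 members a locus of their own was read on the gene's own strand.

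In HoxA, on chromosome 6, levels ran from the shared locus of Hoxa2 to Hoxa6, which gives these genes a single value, to lower values toward the tail end. The Hoxa2 to Hoxa6 locus, whose genes pattern the pharyngeal arches, neck and lung, stood at 2.84, 2.08, 2.52 and 2.79 FPKM in AS22W and 2.32, 3.07, 2.06 and 2.38 FPKM in Sham22W. It stood at 1.99, 1.56, 2.38 and 1.9 FPKM in AS6W and 2.2, 1.81, 2.31 and 2.27 FPKM in Sham6W. All 4 groups overlapped here. Hoxa7, a gene of the trunk, had 1.93, 1.98, 1.23 and 1.18 FPKM in AS22W and 1.12, 1.21, 1.26 and 1.85 FPKM in Sham22W. It had 1.19, 1.0, 1.11 and 1.41 FPKM in AS6W and 2.14, 1.24, 1.58 and 1.27 FPKM in Sham6W, again with overlap between all groups.

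Mean FPKM was lowest in AS6W at 12 of the 13 member loci past the first filter and at 20 of the 21 past the lower filter, where the share over all loci was 14.4% and 17.2%. Of the members on these loci, 8 past the first filter and 3 past the lower one had no AS6W library at the threshold. For them a low rank of AS6W is not independent of the filter.

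Hoxa9 and Hoxa10 sit toward the tail end of HoxA (52223100 to 52231089 and 52231197 to 52240795). Hoxa9 is known for blood-forming and endothelial cells, and Hoxa10 for the lumbar spine and the reproductive tract. Hoxa9 stood at 0.564, 0.445, 0.723 and 0.818 FPKM in AS22W and 0.539, 0.641, 0.612 and 0.551 FPKM in Sham22W. It was 0.0814, 0.178, 0.189 and 0.257 FPKM in AS6W, against 0.42, 0.73, 0.471 and 0.782 FPKM in Sham6W. AS6W lay below the other 3 groups without overlap.

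Hoxa10 showed the same order more sharply. It had 1.43, 0.47, 1.12 and 1.23 FPKM in AS22W and 1.56, 1.03, 1.43 and 1.08 FPKM in Sham22W. It had 0.113, 0.0272, 0.107 and 0.116 FPKM in AS6W, against 0.349, 0.603, 0.773 and 1.02 FPKM in Sham6W. Every AS6W library was below every library of the other groups, and Sham22W was above Sham6W without overlap. Hoxa11, the next gene toward the tail, known for limb and kidney, had counts of 11, 7, 19 and 57 in AS22W and 37, 0, 62 and 20 in Sham22W, against 0 in all 4 AS6W libraries and 4, 0, 0 and 12 in Sham6W.

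In HoxB, on chromosome 11, values were flatter. The highest level of any member was read at the minus-strand locus named Hoxb6, at 4.64, 2.97, 3.77 and 5.81 FPKM in AS22W and 5.48, 5.09, 3.84 and 4.28 FPKM in Sham22W. There it was 3.12, 2.9, 3.22 and 1.97 FPKM in AS6W and 4.4, 3.65, 3.91 and 3.87 FPKM in Sham6W. AS6W lay below Sham6W and Sham22W without overlap, while AS22W overlapped all other groups. The locus of Hoxb3, Hoxb4 and Hoxb5, which includes a regulator of blood stem cells in Hoxb4, had 2.28, 1.51, 1.89 and 2.49 FPKM in AS22W and 2.2, 3.1, 1.9 and 2.3 FPKM in Sham22W. It had 1.61, 1.39, 2.1 and 1.1 FPKM in AS6W and 2.12, 2.22, 1.98 and 1.9 FPKM in Sham6W. All 4 groups overlapped at this locus.

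Hoxb2, a hindbrain and pharyngeal arch gene near the head end, stood at 2.96, 1.66, 4.68 and 3.01 FPKM in AS22W and 2.64, 4.04, 1.7 and 2.95 FPKM in Sham22W. It was 1.36, 1.3, 1.03 and 1.53 FPKM in AS6W and 0.983, 0.847, 1.65 and 1.8 FPKM in Sham6W. The 2 diets overlapped at each time, and AS22W lay above AS6W without overlap. Hoxb7, a trunk gene, had 1.49, 1.47, 2.2 and 1.35 FPKM in AS22W and 1.88, 2.11, 1.44 and 1.44 FPKM in Sham22W. It had 1.1, 0.961, 1.0 and 0.999 FPKM in AS6W, against 1.96, 1.61, 1.84 and 1.86 FPKM in Sham6W, so that AS6W stood apart below the other 3 groups.

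Hoxb8 and Hoxb9 pattern the trunk and ribs. Hoxb8 had 1.21, 0.591, 0.672 and 1.18 FPKM in AS22W, 0.729, 1.28, 0.886 and 0.614 FPKM in Sham22W, 0.808, 0.938, 0.968 and 0.665 FPKM in AS6W and 1.44, 1.01, 0.505 and 0.892 FPKM in Sham6W, with overlap throughout. Hoxb9 averaged 0.661 ± 0.336 FPKM in AS22W, 0.514 ± 0.102 in Sham22W, 0.402 ± 0.084 in AS6W and 0.66 ± 0.157 in Sham6W (SD, n = 4 each). Its AS6W libraries, at 0.408, 0.29, 0.417 and 0.493 FPKM, all lay below those of Sham6W, at 0.887, 0.617, 0.614 and 0.522 FPKM.

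In HoxC, on chromosome 15, every locus past the lower filter had its lowest mean in AS6W. The Hoxc4 and Hoxc6 locus, of genes active in the neck and upper trunk, had 1.7, 1.58, 1.32 and 1.5 FPKM in AS22W and 1.38, 1.66, 1.53 and 1.92 FPKM in Sham22W. It had 0.541, 0.8, 0.636 and 0.757 FPKM in AS6W, against 1.33, 1.33, 1.41 and 1.56 FPKM in Sham6W. The 4 AS6W values lay below all others, and the other 3 groups overlapped. Short loci without strand inside this cluster, named Hoxc4 or Hoxc5 but not chosen by the rule, were also at or near their lowest in AS6W. That at 103032310, for example, was at 0 in all 4 AS6W libraries, against 0.62, 0.0157, 0.37 and 0.699 FPKM in Sham6W.

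The Hoxc5 and Hoxc10 locus, in which Hoxc10 is a lumbar gene, had 1.52, 1.29, 0.618 and 1.27 FPKM in AS22W and 1.57, 0.363, 1.42 and 1.53 FPKM in Sham22W. It had 0.414, 0.357, 0.495 and 0.642 FPKM in AS6W, against 1.45, 1.67, 1.19 and 2.03 FPKM in Sham6W. Here the 6-week groups did not overlap, and Sham22W replicate 2 was as low as AS6W. Hoxc8, a gene of the thoracic trunk, had 1.64, 2.34, 1.44 and 1.65 FPKM in AS22W and 1.88, 0.856, 1.56 and 1.56 FPKM in Sham22W. It had 0.327, 0.438, 0.256 and 0.637 FPKM in AS6W, against 1.24, 0.872, 0.99 and 0.945 FPKM in Sham6W, again with AS6W below all others.

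Hoxc9 (102976439 to 102985099), which sets thoracic motor neuron identity, was almost absent from AS6W. It had 0.258, 0.207, 0.273 and 0.6 FPKM in AS22W and 0.564, 0.616, 0.538 and 0.476 FPKM in Sham22W. Its estimated counts were 1, 0, 0 and 4 in AS6W, against 55, 54, 35 and 32 in Sham6W. In FPKM the AS6W values were 0.00145, 0, 0 and 0.0176, and those of Sham6W 0.259, 0.225, 0.191 and 0.136. Hoxc11, which lies beyond Hoxc10 toward the tail, had counts of 39, 6, 8 and 27 in AS22W and 25, 18, 39 and 19 in Sham22W. It had 0 in all 4 AS6W libraries and 0, 4, 0 and 0 in Sham6W.

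In HoxD, on chromosome 2, Hoxd8 had the highest mean, and every locus past the lower filter had a higher mean at 22 than at 6 weeks on each diet. Hoxd8 (74704615 to 74707933), the only HoxD member past the first filter, had 2.01, 2.22, 2.19 and 2.07 FPKM in AS22W and 2.48, 2.51, 2.52 and 2.0 FPKM in Sham22W. It had 0.759, 0.653, 0.372 and 0.628 FPKM in AS6W and 0.529, 0.866, 1.06 and 1.2 FPKM in Sham6W. All 8 libraries of 22 weeks lay above all 8 of 6 weeks, and the diets overlapped at 6 weeks and at 22 weeks. Hoxd9, its neighbour toward the tail and a limb and lumbar gene, had 0.538, 1.17, 1.17 and 0.701 FPKM in AS22W and 0.748, 0.719, 1.52 and 0.895 FPKM in Sham22W. It had 0.0875, 0.2, 0.199 and 0.161 FPKM in AS6W and 0.162, 0.526, 0.415 and 0.2 FPKM in Sham6W, with the 22-week libraries above the 6-week libraries on each diet.

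The Hoxd3 locus, of a gene of the neck vertebrae, had 0.633, 0.797, 0.792 and 1.03 FPKM in AS22W and 0.811, 0.675, 1.06 and 0.615 FPKM in Sham22W. It had 0.36, 0.316, 0.151 and 0.405 FPKM in AS6W and 0.519, 0.52, 0.373 and 0.547 FPKM in Sham6W. The strandless locus named Hoxd4 had 0.637, 1.56, 0.658 and 1.33 FPKM in AS22W and 0.723, 0.796, 0.559 and 0.844 FPKM in Sham22W, against 0, 0.249, 0.226 and 0.305 FPKM in AS6W and 0.539, 0.187, 0.894 and 0.524 FPKM in Sham6W. On both loci AS22W was above AS6W without overlap.

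**Figure D2:**
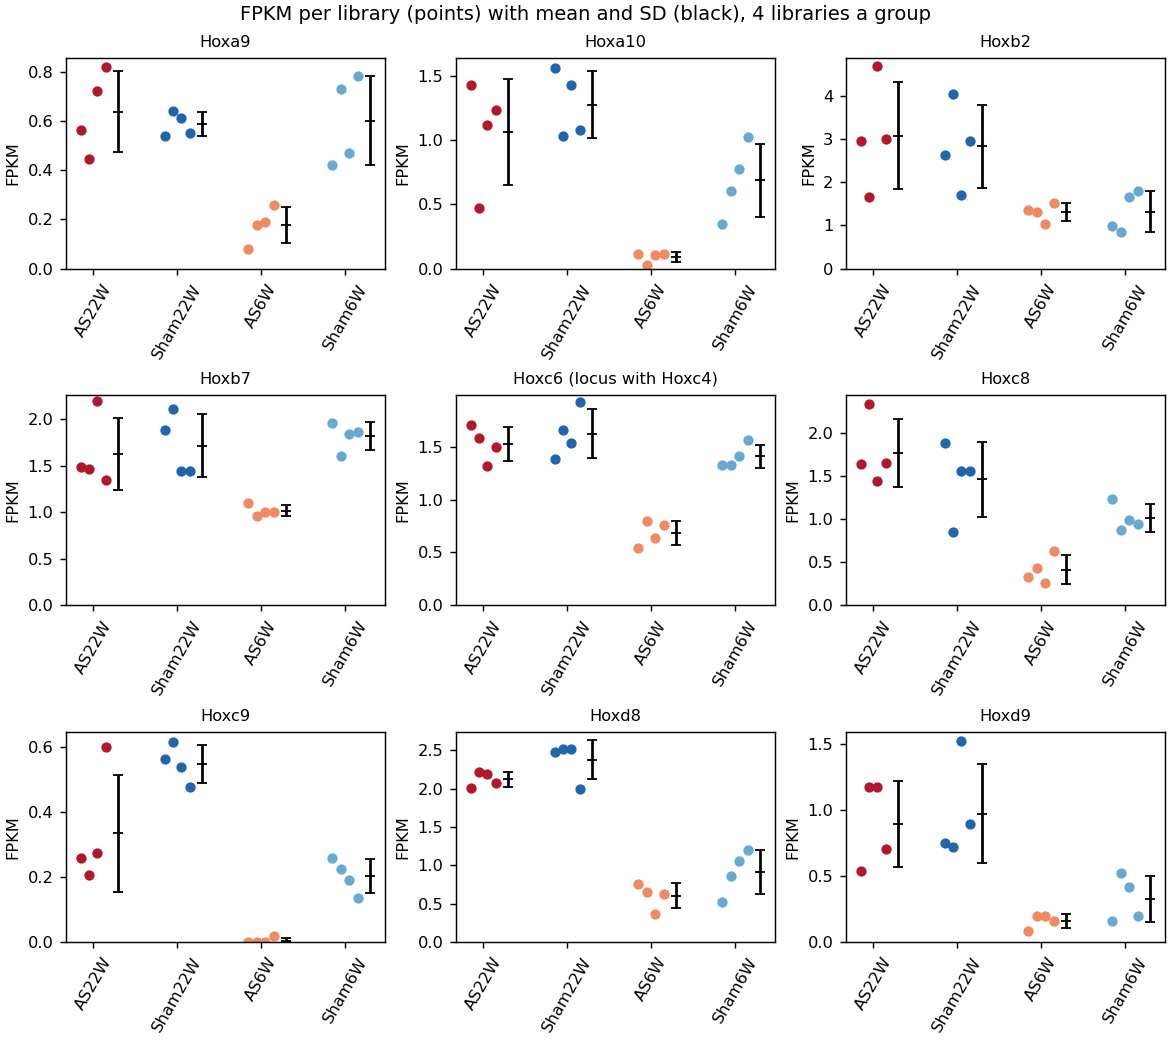
FPKM in each library (points) of 9 Hox members, with the mean and SD of each group in black (n = 4 each) and an axis from 0 in every panel. AS6W lies below Sham6W without overlap for Hoxa9, Hoxa10, Hoxb7, Hoxc6, Hoxc8 and Hoxc9, while for Hoxd8 the 22-week libraries (2.0 to 2.52 FPKM) lie above the 6-week libraries (0.372 to 1.2 FPKM).

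Summed over the members of paralogs 4 to 13 with a locus of their own, paralogs 9 to 13 differed more between groups in proportion than paralogs 7 and 8. No member of paralogs 4 to 6 had such a locus on its own strand. The sum for paralogs 4 to 8 therefore held only Hoxa7, Hoxb7, Hoxb8, Hoxc8 and Hoxd8. Paralogs 9 to 13 (15 members, without Hoxc10) summed to 4.0 ± 0.955 FPKM in AS22W, 4.31 ± 0.697 in Sham22W, 0.846 ± 0.173 in AS6W and 2.55 ± 0.343 in Sham6W (SD, n = 4 each). Their sum was 0.695 to 1.06 FPKM in AS6W, against 2.1 to 2.84 FPKM in Sham6W, without overlap. Paralogs 4 to 8 (5 members) summed to 8.01 ± 0.524 FPKM in AS22W, 7.79 ± 0.277 in Sham22W, 4.05 ± 0.271 in AS6W and 6.26 ± 0.731 in Sham6W.

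As a share of the summed FPKM of these 20 members, paralogs 9 to 13 made up 33.0% ± 6.89 in AS22W, 35.5% ± 3.65 in Sham22W, 17.2% ± 2.89 in AS6W and 29.1% ± 4.89 in Sham6W. The share was 14.6% to 19.7% in AS6W, against 22.3% to 33.7% in Sham6W. These sums are descriptions and were not tested.

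**Figure D3:**
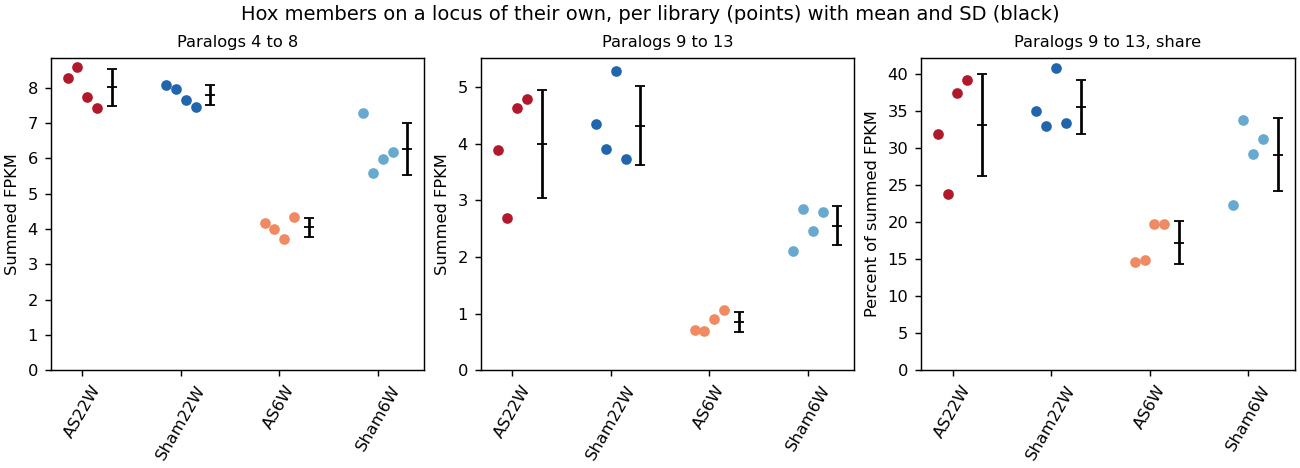
Summed FPKM of Hox members with a locus of their own, for paralogs 4 to 8 and 9 to 13, and the share of paralogs 9 to 13 in the sum of both, per library (points) with the mean and SD in black. The sum for paralogs 4 to 8 holds only Hoxa7, Hoxb7, Hoxb8, Hoxc8 and Hoxd8. In the panel of paralogs 9 to 13 the AS6W libraries (0.695 to 1.06 FPKM) lie below the Sham6W libraries (2.1 to 2.84 FPKM).

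After 6 weeks, Hoxa10 and the locus of Hoxc4 and Hoxc6 were lower on the Western diet than on the normal diet, and no other member past the first filter passed the test. Of the 21 members tested, 3 (2 loci) fell and 0 rose by the quasi-likelihood test of edgeR, with p-values adjusted over 24091 loci by Benjamini-Hochberg, of which 0.22% fell and 0.282% changed in either direction. Hoxa10 fell by 2.94 ± 0.44 on the log2 scale (SE, adjusted p = 0.0083), and the locus of Hoxc4 and Hoxc6 fell by 1.09 ± 0.14 (adjusted p = 0.00318). Both loci passed the filter with no AS6W library at 1 FPKM, so their fall is not independent of the filter. All 21 had a negative log2 fold change, with a median of -0.47 against 0 over all loci, and 13 had an unadjusted p under 0.05. The share of all loci with such an unadjusted p is not given here. AS6W lay below Sham6W without overlap for 8 members (6 loci), against 3.02% of all loci.

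With the lower filter, 5 of 29 members (4 of 21 loci) fell, against 0.124% of 39378 loci. These added Hoxa9, which fell by 1.80 ± 0.32 (adjusted p = 0.034), and Hoxc9, which fell by 5.0 ± 0.66 (adjusted p = 0.00512), a value that rests on 5 counts in all of AS6W. Hoxc9 passed the lower filter with no AS6W library at 0.1 FPKM, so its fall is not independent of the filter. Hoxa9 kept its call without AS6W replicate 4 and lost it without any other single library of AS6W or Sham6W, with an adjusted p between 0.0509 and 0.124. Hoxa11, with 0 counts in AS6W, did not pass (adjusted p = 0.438). AS6W did not overlap Sham6W for 11 of the 29 members (9 loci), against 2.7% of all loci, and each of these was lower.

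Along the clusters the log2 fold changes at 6 weeks ranged widely at paralogs 9 and 10. Near the head end Hoxb2 stood at -0.07 ± 0.32 (adjusted p = 0.972). At paralog 8 the values were -0.24 ± 0.31 for Hoxb8 (adjusted p = 0.873), -1.32 ± 0.30 for Hoxc8 (adjusted p = 0.0959) and -0.66 ± 0.24 for Hoxd8 (adjusted p = 0.321). Among the paralogs 9, where Hoxa9 and Hoxc9 fell, Hoxb9 stood at -0.76 ± 0.35 (adjusted p = 0.494) and Hoxd9 at -1.04 ± 0.43 (adjusted p = 0.435). The Hoxc5 and Hoxc10 locus (-1.78 ± 0.38) and Hoxb7 (-0.89 ± 0.19) both had an adjusted p of 0.0759. The differences between paralogs were not tested.

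No marker of any other cell type passed in this comparison. Marker lists whose sums differed are given here, and their part in the result was not tested. Thymus markers (3 of 5 past the filter) summed to 3.32 to 67.5 FPKM in AS6W and 1.59 to 2.51 in Sham6W, with Ptcra at 0 in AS6W replicates 3 and 4 and in all 4 Sham6W libraries. Cartilage and bone markers (3 of 4) summed to 2.8 to 3.33 FPKM in AS6W and 4.05 to 4.71 in Sham6W, with Col2a1 at 0 in AS6W replicate 2 and Ibsp at 0 in Sham6W replicates 2 and 3. Most of that sum was Acan, at 2.01 to 2.56 FPKM in AS6W and 3.42 to 3.87 FPKM in Sham6W (log2 fold change -0.69 ± 0.20, adjusted p = 0.188). Sox9 averaged 0.644 FPKM in AS6W and 0.626 in Sham6W, and the means of Ibsp and Col2a1 were not lower in AS6W either. Nerve and ganglion markers summed to 22.6, 201, 3.18 and 132 FPKM in AS6W, against 24.1, 45.2, 6.69 and 15 in Sham6W, so that replicates 2 and 4 of AS6W were high. Without the 3 libraries that stood apart, the Hoxc4 and Hoxc6 locus still passed (-1.05, adjusted p = 0.0334), while Hoxa10 (-2.64, adjusted p = 0.115), Hoxc9 (-4.39, adjusted p = 0.12) and Hoxa9 (-1.44, adjusted p = 0.257) did not.

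After 22 weeks, no Hox member passed between the diets. In edgeR 0 of 21 members were called, 0 had an unadjusted p under 0.05, and DESeq2 called 0, while 0.228% of all loci passed. With the lower filter it was 0 of 29, against 0.0609%. Log2 fold changes were positive in 9 members and negative in 12, with a median of -0.08 against -0.03 over all loci. The values for Hoxa10 and the Hoxc4 and Hoxc6 locus, which fell at 6 weeks, were -0.30 ± 0.39 (adjusted p = 0.798) and -0.11 ± 0.14 (adjusted p = 0.791), and that of Hoxc9 was -0.72 ± 0.48 (adjusted p = 0.649). The groups overlapped for each of the 29 members, where 3.91% of all loci were higher and 2.0% lower without overlap.

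The difference between the diet effects at 22 and 6 weeks was tested directly. No member passed in edgeR, against 0.183% of all loci, although 7 of 21 had an unadjusted p under 0.05. DESeq2 called 6 members and limma on log2(FPKM + 0.5) called 0, and without AS6W replicate 4 edgeR called 2. For these fits, and for the unadjusted p, the share over all loci is not given here. The difference was 0.98 ± 0.20 for the Hoxc4 and Hoxc6 locus (adjusted p = 0.0682), 2.64 ± 0.58 for Hoxa10 (adjusted p = 0.0909) and 4.28 ± 0.81 for Hoxc9 with the lower filter (adjusted p = 0.0661), each positive. The diet effect was thus not shown by edgeR to differ between the times for any member. All 21 values were positive, with a median of 0.26 against -0.05 over all loci, and they share the AS6W libraries with the 6-week comparison.

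On the Western diet, most Hox members were higher at 22 than at 6 weeks. Of the 21 members, 19 rose and 1 fell. By locus, 11 of 13 rose and 1 fell, where 43.8% of all loci changed, 21.9% upward and 21.9% downward. Past the first filter, the largest rises were those of Hoxa10 (3.74 ± 0.45, adjusted p = 1.1e-05), Hoxc8 (2.31 ± 0.30, adjusted p = 2.43e-05), Hoxd8 (2.06 ± 0.25, adjusted p = 1.26e-05), the Hoxc5 and Hoxc10 locus (1.53 ± 0.38, adjusted p = 0.00431) and Hoxb2 (1.48 ± 0.33, adjusted p = 0.00208). The Hoxc4 and Hoxc6 locus rose by 1.39 ± 0.14 (adjusted p = 2.62e-06), and the Hoxa2 to Hoxa6 locus by 0.63 ± 0.15 (adjusted p = 0.00262). Hoxa10, Hoxc8, Hoxd8, the Hoxc5 and Hoxc10 locus and the Hoxc4 and Hoxc6 locus had no AS6W library at 1 FPKM. They passed the filter through the other groups, so their rise is not independent of it. Hoxb8 did not pass (0.35 ± 0.31, adjusted p = 0.386). Hoxa7, which rose by 0.66 ± 0.23 (adjusted p = 0.0293), lost its call without any of AS22W replicates 1 and 2 and AS6W replicates 1, 2 and 3 (adjusted p 0.056 to 0.0808). The AS22W libraries lay above the AS6W libraries without overlap for 7 members (6 loci), against 13% of all loci.

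With the lower filter, 25 of 29 rose and 1 fell (17 and 1 of 21 loci), against 13.5% and 15% of 39378 loci. Of the 8 members it added, 7 rose and Hoxb9 did not pass (0.91 ± 0.35, adjusted p = 0.0655), and Hoxa7 no longer passed (adjusted p = 0.0522). Hoxc9 rose by 5.84 ± 0.66 (adjusted p = 1.11e-05), Hoxd9 by 2.64 ± 0.45 (adjusted p = 0.000354), Hoxa9 by 2.03 ± 0.32 (adjusted p = 0.000194) and the Hoxd3 locus by 1.59 ± 0.28 (adjusted p = 0.000564). Hoxa11 (adjusted p = 0.00961) and Hoxc11 (adjusted p = 0.00132) also rose, with no fold given because AS6W had 0 counts and 1 count may not be 1 fragment. Both passed the lower filter only through 22-week libraries, since no 6-week library of either reached 0.1 FPKM. Their rise is therefore not independent of the filter, and both are counted among the 25. Hoxc9 also had no AS6W library at 0.1 FPKM, so the same holds for its rise.

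On the normal diet, Hoxd8 and Hoxb2 were higher at 22 than at 6 weeks with either filter. The difference between the time effects on the 2 diets is the same contrast as the difference of the diet effects above, in which no member passed in edgeR. Of 21 members, 11 rose and 1 fell. By locus, 6 of 13 rose and 1 fell, where 46.7% of all loci changed, 24% upward and 22.6% downward. Hoxd8 rose by 1.58 ± 0.25 (adjusted p = 9.98e-05), Hoxb2 by 1.30 ± 0.33 (adjusted p = 0.00447), Hoxa10 by 1.10 ± 0.40 (adjusted p = 0.033) and Hoxc8 by 0.74 ± 0.29 (adjusted p = 0.0462). The Hoxc4 and Hoxc6 locus rose by 0.41 ± 0.14 (adjusted p = 0.0238) and the Hoxa2 to Hoxa6 locus by 0.40 ± 0.14 (adjusted p = 0.0329). With the lower filter 6 of 29 rose (6 of 21 loci), against 15% of loci, and 1 fell, against 16.1%. Hoxa10 (adjusted p = 0.0656), Hoxc8 (0.0898), the Hoxc4 and Hoxc6 locus (0.0624) and the Hoxa2 to Hoxa6 locus (0.0978) no longer passed there. Among those added, Hoxd9 rose by 1.71 ± 0.43 (adjusted p = 0.00625), Hoxc9 by 1.56 ± 0.49 (adjusted p = 0.0236), and the Hoxd3 locus by 0.83 ± 0.28 (adjusted p = 0.0328). Hoxc11, with 4 counts in all of Sham6W, passed as well (adjusted p = 0.00398), but it was past the filter only through 22-week libraries. Hoxa7 (0.01 ± 0.23), Hoxb7 (0.13 ± 0.19) and the Hoxc5 and Hoxc10 locus (-0.17 ± 0.37) did not pass, with adjusted p of 0.973, 0.601 and 0.736.

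Many of these calls rest on single libraries and on the scale. On the normal diet, Hoxd8, Hoxb2, Hoxd9 and Hoxc11 kept their call whichever single library was left out. Hoxc8 lost it without any 1 of 6 of the 8 libraries (adjusted p 0.0801 to 0.129), all but Sham22W replicate 2 and Sham6W replicate 1. Hoxa10 lost it without Sham22W replicate 1 or 3 or Sham6W replicate 1 or 2 (0.0702 to 0.0928), and the Hoxd3 locus without Sham22W replicate 1 or 3 or Sham6W replicate 1, 2 or 3 (0.0563 to 0.111). The Hoxc4 and Hoxc6 locus lost it without Sham22W replicate 4 or Sham6W replicate 1 or 2 (0.0602 to 0.0748), the Hoxa2 to Hoxa6 locus without Sham22W replicate 2 or Sham6W replicate 1 or 2 (0.0561 to 0.118), and Hoxc9 without Sham6W replicate 3 (0.0519) or 4 (0.0645).

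Leaving out 1 library of the normal diet moved the count of 12 to 7 without Sham22W replicate 2, 4 without Sham6W replicate 1 and 3 without Sham6W replicate 2. Each member of a shared locus counts in these numbers. The FPKM as deposited, tested with limma, put the median of all loci at -0.208 on the Western and -0.16 on the normal diet, against -0.0204 and 0.0161 for edgeR's scaled counts. On that scale 3669 loci rose and 8056 fell on the Western diet (5274 and 5287 in edgeR), and 4252 rose and 7914 fell on the normal diet (5792 and 5455 in edgeR). Of the members, 10 rose and 1 fell on the Western diet and 3 rose and 1 fell on the normal diet. Without the 3 libraries that stood apart, 13 members rose and 0 fell on the Western diet, and the share over all loci in that fit is not given here. The library codes in the labels begin differently at 22 and at 6 weeks, so that time on diet, age and library series cannot be told apart.

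Cell type markers also differed with time, and their part in these results was not tested. Smooth muscle sums, given above, were lower at 22 weeks on each diet without overlap, with all 6 markers detected in every library, 3 of 6 passing as lower on the Western diet and 2 of 6 on the normal diet. Of 5 fibroblast and adventitia markers, 1 was higher and 1 lower on the Western diet and 2 higher and 1 lower on the normal diet. Their sum was lower, at 142 to 184 FPKM in AS22W against 194 to 243 in AS6W and 119 to 176 in Sham22W against 179 to 200 in Sham6W, with Dcn the marker that fell (-0.84 ± 0.13 and -0.77 ± 0.13). Of 4 macrophage markers, 2 were higher and 1 lower on each diet. Their sum, 488 to 662 FPKM in AS22W and 116 to 375 in AS6W, was mostly Lyz2 (2.06 ± 0.40), while the locus of Cd68, which names other genes too, fell (-0.43 ± 0.13). Of 5 endothelial markers, Vwf was higher (1.61 ± 0.18 on the Western and 1.92 ± 0.19 on the normal diet) and Tek lower (-0.55 ± 0.10 and -0.85 ± 0.10).

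Markers of neighbouring tissues differed as well. Of 5 brown fat markers, 5 were lower in Sham22W than in Sham6W (sums of 212 to 622 against 1490 to 2080 FPKM) and 1 was lower in AS22W than in AS6W. Of 5 white fat markers, 3 were higher on the Western diet (sums of 553 to 1170 FPKM in AS22W and 508 to 836 in AS6W) and 1 on the normal diet (411 to 974 FPKM in Sham22W and 426 to 518 in Sham6W). Of 5 skeletal muscle markers tested, 3 were higher on the Western diet (8.74 to 80.6 FPKM in AS22W and 1.07 to 15.1 in AS6W), and 4 were lower on the normal diet (1.44 to 11 FPKM in Sham22W and 8.75 to 52.1 in Sham6W). Of 3 heart markers tested, 2 were higher on the normal diet (3.44 to 246 FPKM in Sham22W and 1.68 to 6.89 in Sham6W) and 0 passed on the Western diet. Of 3 cartilage and bone markers tested, 3 were higher on the Western diet (13.8 to 39 FPKM in AS22W and 2.8 to 3.33 in AS6W) and 2 on the normal diet. Star, the 1 adrenal cortex marker of 4 past the filter, was lower on each diet (-0.57 ± 0.14 and -0.53 ± 0.14).

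**Figure D4:**
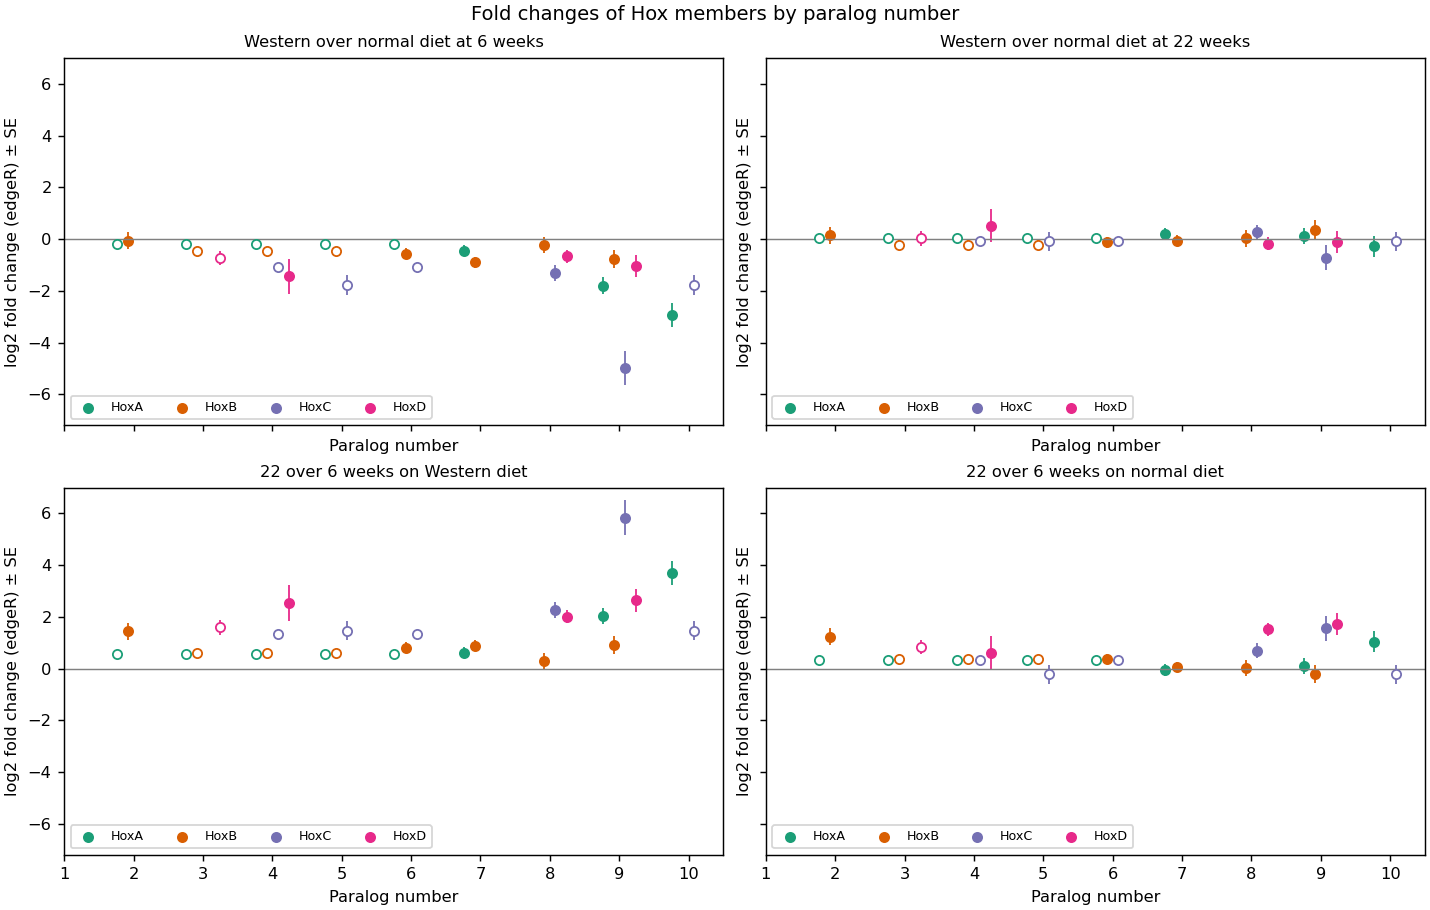
Log2 fold change with SE (edgeR, lower filter, so values differ slightly from those of the first filter) of 26 Hox members by paralog number and cluster (colour), in 4 comparisons on 1 common axis. Open circles are members whose locus also names another member, and Hoxa11 and Hoxc11 are not drawn because AS6W had no counts. At 6 weeks the points fall below 0, to -5.0 for Hoxc9, at 22 weeks they lie about 0, and over time on the Western diet the points drawn lie above 0.

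Genes known to act with or on the Hox clusters did not pass between the diets at either time, nor in the difference of the diet effects. There 0 were called of the 8 cofactors tested (of 9 listed), 20 chromatin regulators (of 20) and 10 retinoic acid genes (of 13). It was also 0 of 4 loci naming a noncoding cluster RNA (of 14 listed), 7 cluster neighbours (of 12) and 13 other position genes (of 30). Over time, 21.9% of all loci rose and 21.9% fell on the Western diet, and 24% rose and 22.6% fell on the normal diet, and the counts below stand beside these shares. Of 10 retinoic acid genes, 7 rose and 0 fell on each diet, with median log2 fold changes of 0.70 on the Western and 0.78 on the normal diet, against -0.02 and 0.02 over all loci. The receptor Rara rose by 1.16 ± 0.13 (adjusted p = 6.16e-06) and 1.23 ± 0.13 (adjusted p = 2.96e-06), and its partner Rxrb by 1.06 ± 0.11 and 1.01 ± 0.11. Rdh10, which makes retinal, the precursor of retinoic acid, rose by 0.58 ± 0.11 and 0.51 ± 0.11.

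Of 20 chromatin regulators, 4 rose and 6 fell on the Western diet and 5 rose and 6 fell on the normal diet, shares near those over all loci. Among those that fell were Polycomb members, which keep Hox genes silent, such as Bmi1 (-0.94 ± 0.12 on the Western and -1.18 ± 0.12 on the normal diet) and Rnf2 (-0.95 ± 0.11 and -0.72 ± 0.11), while Phc2, also of Polycomb, rose (0.78 ± 0.08 and 1.05 ± 0.08). Kdm6b, which removes the Polycomb mark, rose (0.83 ± 0.15 and 1.01 ± 0.15), and Kdm6a, which does the same, fell (-0.41 ± 0.09 and -0.51 ± 0.09). Of the cofactors, the locus of Pbx2, which also names Gpsm3, rose by 0.94 ± 0.12 and 1.03 ± 0.12, and Meis3 by 0.42 ± 0.16 and 0.83 ± 0.17. Meis1 fell by 0.63 ± 0.16 and 0.48 ± 0.16 and Meis2 by 0.33 ± 0.10 and 0.54 ± 0.10. Pbx3 fell on the Western diet (-1.20 ± 0.45, adjusted p = 0.0402).

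Of the 13 position genes outside the clusters, 6 rose and 1 fell on the Western diet, and 5 rose and 1 fell on the normal diet, with medians of 0.36 and 0.56. Foxc2, needed for the aortic arch, rose by 1.83 ± 0.20 and 1.87 ± 0.20, and Tbx1, also of the arch and outflow tract, by 1.45 ± 0.14 and 1.0 ± 0.14. The genes that fell were Tbx20 on the Western diet (-1.08 ± 0.42, adjusted p = 0.0482) and Meox2 on the normal diet (-0.85 ± 0.14, adjusted p = 0.000138). Tbx20 was read at 4.99 and 3.8 FPKM in AS6W replicates 2 and 4, the libraries high in ganglion markers, and at 0.915 and 1.31 FPKM in AS6W replicates 1 and 3, and the part of those libraries in its fall was not tested. Of the 7 neighbours, Smug1 rose on each diet (0.41 ± 0.13 and 0.38 ± 0.13), and on the normal diet Mtx2, beside HoxD, fell by 0.90 ± 0.21 and Hibadh and Skap2, beside HoxA, by 0.76 ± 0.19 and 0.36 ± 0.12. Of the 4 loci past the first filter that name a noncoding cluster RNA, 1 rose on the Western diet (0.64 ± 0.18, adjusted p = 0.00977). It is the locus of Hoxb3, Hoxb4 and Hoxb5, which also names Mir10a and is already counted among the members. With the lower filter, Hoxd3os1, an antisense RNA of HoxD, rose on each diet (1.64 ± 0.32, adjusted p = 0.00102, and 1.43 ± 0.31, adjusted p = 0.00236), and the Mir196a-2 locus rose on the Western diet (adjusted p = 0.00315), as did the Hoxa9 locus that names Mir196b. Hottip, a noncoding RNA of the tail end of HoxA, was at 0 in all 16 libraries.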

How the data were processed

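One table was deposited for the series, with 70603 loci and, for each of 16 libraries, an FPKM value and an estimated count, per the file headers. The submitters' processing notes name cutadapt 1.9, FastQC and the build GRCm38. No aligner, counter or annotation is named in the sources used here. The deposited estimated counts were whole numbers, and value 4 occurred 35277 times, against 14716 for 3 and 9394 for 5, so a count may not be a fragment. Where a count was 0, the deposited FPKM was 0.0001, written here as 0. Columns were matched by sample title, because 1 label points to another replicate's column. The 3714 loci naming no gene held 0.606% of counts and were left out.

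The main test was edgeR 4.0.16 (R 4.3.3), quasi-likelihood, on the deposited counts with TMM scaling and 4 group means, two-sided, for loci with at least 1 FPKM in at least 4 libraries, called at an adjusted p under 0.05. The plan foresaw this filter. Members below it come from the fit with 0.1 FPKM. Alternatives were DESeq2 1.42.0, limma 3.58.1 on log2(FPKM + 0.5), 0.1 or 1, other scalings and filters, a replicate block, and leaving out libraries. Tests were checked on simulated counts. Members and lists were chosen with earlier results of these data known. Every called member but 1, the highest locus of each cluster and the highest paralog past the filter are given by library. Results for that member are not reported here, although the counts include it.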

Additional observations from a re-analysis of the deposited data

Results flagged for a closer look

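In 8 cases a single library of a group stood apart from the other 3 by more than the spread allows in a test for single outliers, of 84 groups of 4 libraries examined. Chance gives about 1 in 20 where values follow a normal distribution. This rate does not hold where most values are at or near 0, as for Hoxc9 in AS6W and Hoxc11 in Sham6W below. Hoxa10 was at 0.0272 FPKM in AS6W replicate 2, where the others were 0.107 to 0.116. Hoxb7 was at 2.2 FPKM in AS22W replicate 3, where the others were 1.35 to 1.49. The Hoxc5 and Hoxc10 locus was at 0.363 FPKM in Sham22W replicate 2, where the others were 1.42 to 1.57. Hoxc9 was at 0.6 FPKM in AS22W replicate 4, where the others were 0.207 to 0.273, and at 0.0176 FPKM in AS6W replicate 4, where the others were 0 to 0.00145. Hoxc11 was at 0.0191 FPKM in Sham6W replicate 2 and at 0 in the other 3. The Hoxd3 locus was at 0.373 FPKM in Sham6W replicate 3, where the others were 0.519 to 0.547. Hoxd8 was at 2.0 FPKM in Sham22W replicate 4, where the others were 2.48 to 2.52.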

How the results depend on the processing

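Of 34 called values of single members, tried under 693 alternatives in all, 0 changed direction, 596 kept their call and 97 lost it. For the 6-week diet comparison, with 3 members called, DESeq2 called 7, no filter 5 and the lower filter 5. For the difference of the diet effects, with 0 called, DESeq2 called 6, upper-quartile scaling 2 and loci summed per symbol 2. For 22 over 6 weeks on the Western diet, with 20 called, limma called 11 at each pseudocount, loci naming a single gene 9 (of 10 tested), and the fit without the libraries that stood apart 13. On the normal diet, with 12 called, upper-quartile scaling called 6, limma 4, 3 and 4 at pseudocounts of 0.5, 0.1 and 1, single-gene loci 5, summed loci 7 and the lower filter 7. The causes were not tested, apart from fewer members tested among single-gene loci. The share over all loci is not given here for DESeq2, upper-quartile scaling, no filter, summed or single-gene loci, or fits that leave out libraries. Counts from those fits therefore do not show whether Hox members were called more often than other loci. Leaving out 1 library in turn gave 3 to 4, 0 to 0 (22-week diet), 0 to 2, 18 to 20 and 3 to 13 members, the 2 in the difference without AS6W replicate 4. Of 39 members, 18 had a mean FPKM of at least 1, 10 of at least 2, and 7 counting single-gene loci alone. With the replicate number as a block the counts were 3, 0, 0, 20 and 11, and over all loci 28, 26, 0, 10083 and 10782 passed, against 68, 55, 44, 10561 and 11247 without the block. The numbers did not pair the samples, since same-numbered libraries deviated with correlations of -0.202 to 0.12. The fit to the compared groups alone was not run for the difference, which uses all groups. Hoxa10 at 6 weeks lost its call with limma at pseudocounts 0.5 and 1 (adjusted p = 0.0971 and 0.144) and in the fit of the 2 groups alone (0.0513), while the Hoxc4 and Hoxc6 locus kept it in all 21 alternatives (adjusted p from 3.56e-10 to 0.0334). Hoxa9 lost it in 12 of 19, leaving out any 1 of 7 of the 8 libraries included, and Hoxc9 in 4 of 20. Some genes toward the tail end had few or no counts in AS6W: Hoxa11 and Hoxc11 had 0 in each library and Hoxc9 had 0 to 4.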
